A study of Mus musculus with 22 samples.

Results

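The 10 genes described here encode enzymes of serine, glycine and folate metabolism: Phgdh, Psat1 and Psph of serine synthesis, the serine racemase gene Srr, the serine hydroxymethyltransferase genes Shmt1 and Shmt2, the folate enzyme genes Aldh1l1 and Mthfd2, and Gldc and Gcsh of the glycine cleavage system. They were chosen by name, and all probes annotated to those symbols were taken, 17 of 33026 probes with a gene name, for 10 of 22485 genes in the table. Where a gene had several probes, the main one was that of highest mean over all samples. Transcripts were measured on Agilent arrays in 2 cell types sorted from the cortex of mice of C57BL/6 background aged 15 to 18 months. The microglia, taken as CD11b+/CD45+ cells, came as 7 samples from APPswe/PS1dE9 mice (APP/PS1) and 7 from wild-type littermates (WT). The astrocytes, taken as GLT1+/CD11b- cells after removal of myelin and O4+ cells, came from 4 APP/PS1 and 4 WT samples, and the labels describe all samples as biological replicates. APP/PS1 mice carry mutant transgenes under prion promoter sequence, which is not restricted to 1 cell type, and they deposit amyloid with age. WT mice carry no transgene. An APP/PS1 and a WT sample of 1 cell type and replicate number were paired on each of 11 arrays, in different dyes.

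Serine can be made in cells from an intermediate of glycolysis in 3 steps. Phgdh oxidises that intermediate, Psat1 adds an amino group taken from glutamate, and Psph removes the phosphate to release L-serine. In the adult brain this route is known as a property of astrocytes, which supply serine to neurons. Serine is then turned by serine racemase into D-serine, a co-agonist of NMDA receptors, or into glycine by the serine hydroxymethyltransferases, which load the released carbon unit onto folate. The glycine cleavage system of the mitochondrion breaks glycine down and loads folate too. The loaded forms are used in nucleotide and methionine synthesis, and the folate enzymes interconvert or oxidise them.

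The values are log2 intensities as deposited, with sample medians between 6.24 and 6.26, so a shift common to all genes of a sample could not be seen. Every main probe of the 10 genes had a value in all 22 samples. The 4 astrocyte arrays shared 1 slide, and the 7 microglia arrays were spread over 2 others. On 2 of 4 astrocyte arrays and 1 of 7 microglia arrays the paired samples differed in the level of the Y-linked gene Eif2s3y. These were astrocyte replicates 1 and 3 and microglia replicate 1. The counts of the 10 genes called for genotype are also given without these arrays, and other counts are not. The samples carried the markers of their cell types: 14 of 14 astrocyte markers were higher in WT astrocytes than in WT microglia, and 13 of 14 microglia markers were lower. The exception was Itgam, which encodes the CD11b antigen used for the sort, at a mean of 13.50 in WT astrocytes and 13.95 in WT microglia with the probe used. Astrocyte samples also had endothelial and mural markers, with summed log2 levels of 16.78 to 17.85 and 14.84 to 17.57 in WT samples. Oligodendrocyte precursor markers summed to 15.89 to 16.23 in WT astrocytes, where Ptprz1 alone had a mean of 15.91.

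Between the WT cell types, 7 of the 10 genes were higher in astrocytes, 2 were higher in microglia and Shmt2 did not pass the test (limma with array as a random block, Benjamini-Hochberg adjusted p under 0.05 over all genes). Of all genes, 53.3% passed in this comparison, 35.3% higher in astrocytes. Their median difference, WT astrocytes minus WT microglia, was 2.82 log2 units, against 0.34 over all genes. In bulk samples a smaller share of expressing cells and less RNA per cell cannot be told apart, here and in every comparison that follows. Since no slide held both cell types, a slide effect cannot be told apart from that of the cell type. A random slide term cannot separate them either. With it in place of array, 9 of the 10 genes were called, and 7261 of 22395 in all, against 11940 with array.

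The 3 serine synthesis genes were all higher in WT astrocytes. Phgdh lies on chromosome 3 (GRCm38.p6, chr3:98313171-98339969). Its WT astrocyte values were 15.13, 15.29, 15.29 and 15.39, while WT microglia ranged from 11.78 to 12.47 with a median of 11.89. The difference was 3.23 ± 0.25 log2 units (standard error, limma adjusted p = 8.58e-10), 9.35-fold. Psat1 (chr19:15905123-15925059) had WT astrocyte values of 13.85, 14.24, 14.10 and 13.91 and WT microglia values from 10.25 to 10.91, median 10.54, a difference of 3.47 ± 0.29. Psph (chr5:129765558-129787443) had WT astrocyte values of 12.50, 12.93, 12.18 and 12.28 and WT microglia values from 8.29 to 9.35, median 8.90, a difference of 3.57 ± 0.28. For each of these genes the lowest WT astrocyte sample lay above the highest WT microglia sample. The second probe of each gene gave differences of 2.77 for Phgdh, 2.95 for Psat1 and 3.29 for Psph.

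The 250 bases before the annotated start sites of these 3 genes are shown because the genes fell together in APP/PS1 astrocytes but not in APP/PS1 microglia. They are RefSeq sequences of GRCm38.p6, all on the minus strand, read toward the gene from 5′ to 3′: chr3:98339970-98340219 for Phgdh, chr19:15925060-15925309 for Psat1, whose other annotated start site is not shown, and chr5:129787254-129787503 for Psph. Capitals mark matches, on either strand, to the motifs described next.
Phgdh: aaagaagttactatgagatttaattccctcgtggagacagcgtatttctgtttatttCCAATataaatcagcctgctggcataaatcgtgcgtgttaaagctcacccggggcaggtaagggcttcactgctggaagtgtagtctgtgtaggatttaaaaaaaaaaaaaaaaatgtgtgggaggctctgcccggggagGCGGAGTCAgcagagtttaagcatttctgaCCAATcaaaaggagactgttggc
Psat1: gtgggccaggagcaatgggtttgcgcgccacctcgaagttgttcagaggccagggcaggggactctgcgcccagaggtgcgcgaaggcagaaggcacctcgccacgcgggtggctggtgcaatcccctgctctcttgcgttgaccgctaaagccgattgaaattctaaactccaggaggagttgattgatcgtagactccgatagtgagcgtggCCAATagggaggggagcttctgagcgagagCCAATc
Psph: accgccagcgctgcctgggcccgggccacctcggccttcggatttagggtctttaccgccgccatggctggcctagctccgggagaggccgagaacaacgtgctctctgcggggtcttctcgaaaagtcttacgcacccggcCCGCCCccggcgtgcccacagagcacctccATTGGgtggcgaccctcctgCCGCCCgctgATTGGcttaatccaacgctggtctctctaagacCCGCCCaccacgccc
The motifs searched were TGATGNAA, the composite site of ATF4 and C/EBP factors, the E-box CACGTG, the antioxidant response core TGACNNNGC, the CCAAT box CCAAT and the GC box GGGCGG, each on both strands. RefSeq held 11 such windows for the 10 genes and 32851 in all. A CCAAT box was found in 8 of 11 windows, against 33.8% of all windows, and a GC box in 7 of 11, against 32.7%. The antioxidant response core was found in 1 of 11, that of Phgdh, against 10.2% of all windows, where its letters begin 53 bases before the start. No E-box and no composite site was found in the 11 windows, against 6.02% and 3.45% of all windows. The Phgdh window had a GC content of 44%, against 59.6% for the Psat1 window, 67.2% for that of Psph and a median of 52.4% over all windows. Any part of these windows in the changes of the 3 genes was not tested. Astrocyte markers fell in APP/PS1 astrocytes too, 13 of 14, as given below.

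The genes that use serine and glycine divided between the cell types. Srr (chr11:74904027-74927533), for the racemase, was higher in WT astrocytes (9.67 ± 0.06, mean ± SD, n = 4) than in WT microglia (8.05 ± 0.33, n = 7), a difference of 1.63 ± 0.18. Shmt1 (chr11:60788897-60811265), for the cytosolic hydroxymethyltransferase, was lower in WT astrocytes (4.78 ± 0.21) than in WT microglia (6.37 ± 0.33), with a difference of -1.59 ± 0.19. Shmt2 (chr10:127517123-127522444), for the mitochondrial form, was at 8.84 ± 0.20 and 8.98 ± 0.19. Its difference of -0.15 had a 95% confidence interval from -0.49 to 0.19 (limma adjusted p = 0.474).

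The glycine cleavage genes were far higher in WT astrocytes. Gldc (chr19:30098441-30175441), for the decarboxylase that starts glycine breakdown, was at 13.00, 13.38, 13.54 and 13.36 in WT astrocytes and from 5.11 to 7.21 in WT microglia, median 6.60. The difference was 6.82 ± 0.35 log2 units (limma adjusted p = 9.53e-13), 113-fold. Gcsh (chr8:116981967-116993498), for the lipoyl carrier protein of the complex, was at 12.42, 12.86, 12.54 and 12.35 in WT astrocytes and from 9.82 to 10.48 in WT microglia, a difference of 2.42 ± 0.19. The ranges of the cell types did not overlap for either gene. As background, 45.1% of all genes had WT astrocyte and WT microglia ranges that did not overlap, 31.1% with astrocytes higher.

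The folate enzyme genes differed in opposite directions between the cell types. Aldh1l1 (chr6:90550768-90599171), whose enzyme oxidises formyl-folate in the cytosol and which is widely used as an astrocyte marker, was at 15.36, 15.65, 15.48 and 15.43 in WT astrocytes and from 7.74 to 8.61 in WT microglia. The difference was 7.33 ± 0.28 log2 units (limma adjusted p = 1.34e-14), 161-fold. Mthfd2 (chr6:83305704-83326011), for a mitochondrial folate dehydrogenase known from proliferating cells, was at 5.88, 5.77, 5.93 and 6.05 in WT astrocytes and from 6.45 to 7.82 in WT microglia, a difference of -1.36 ± 0.26. Among the WT samples Aldh1l1 was thus higher in astrocytes and Mthfd2 in microglia, with no overlap for either. In APP/PS1 astrocytes Mthfd2 reached 7.17, inside the WT microglia range.

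**Figure D1:**
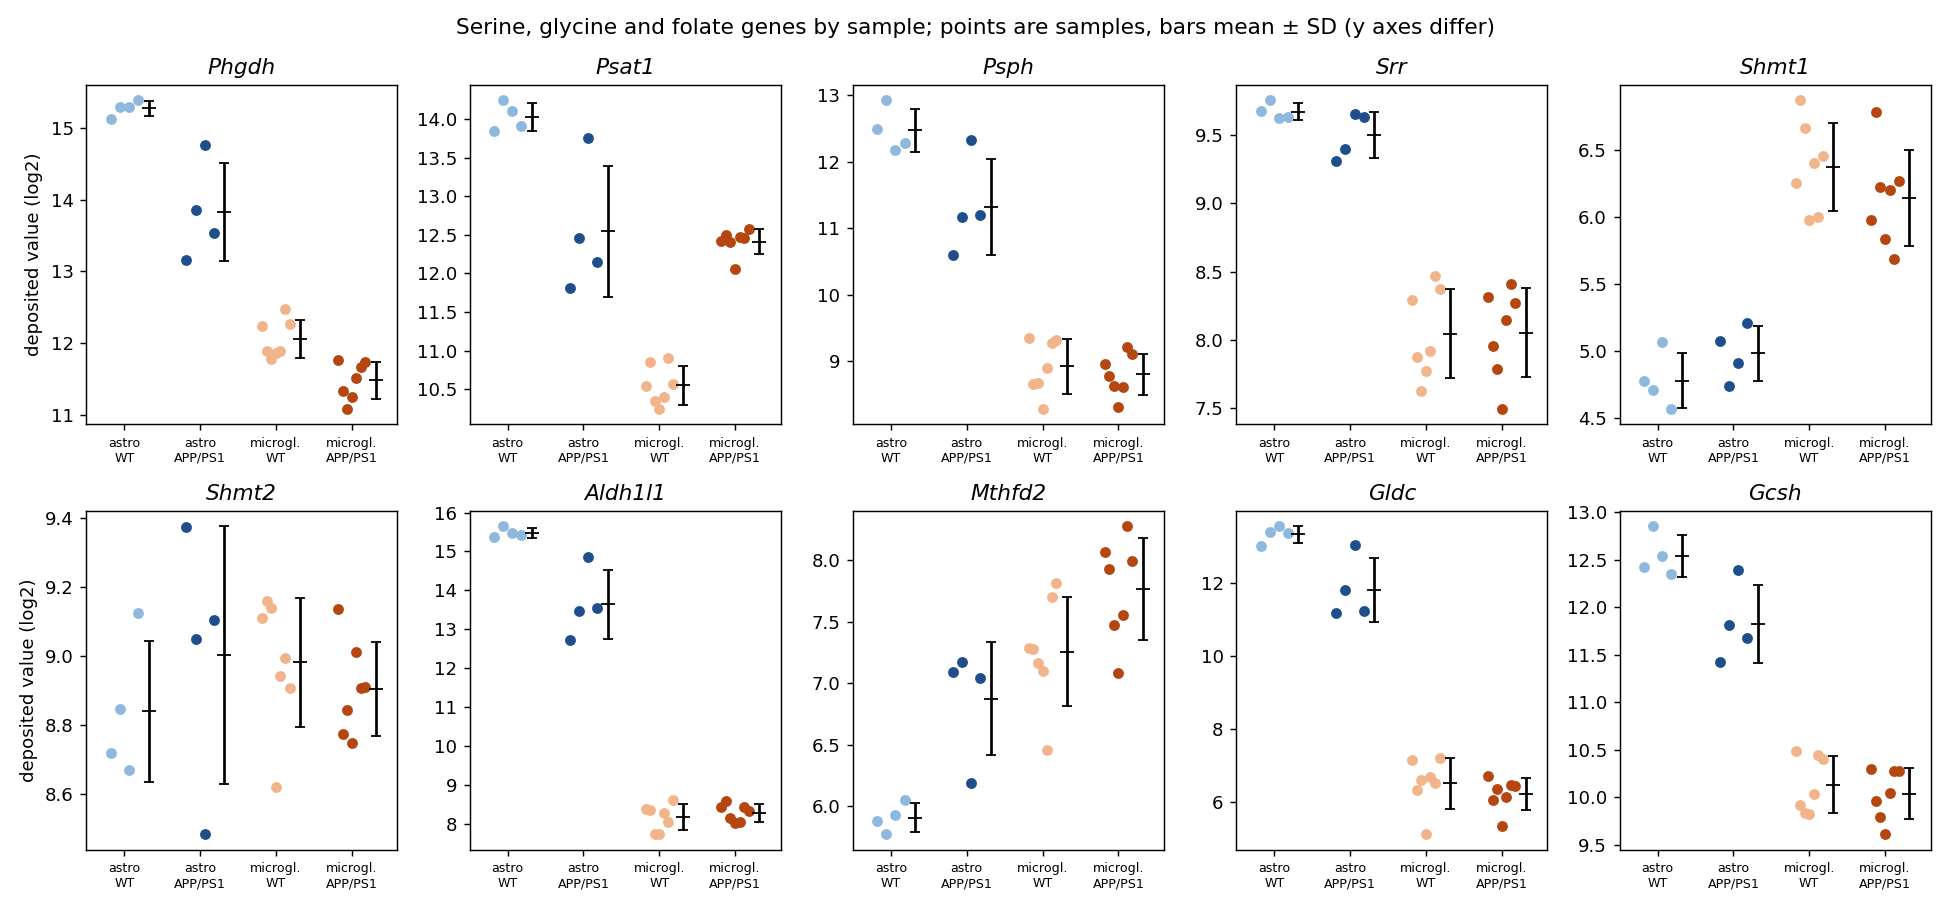
Deposited log2 values of the 10 genes in each sample (points) with the mean ± SD of each group (bars), for WT and APP/PS1 astrocytes (n = 4 each) and microglia (n = 7 each); the y axes differ between panels. Psat1 in APP/PS1 microglia (12.06 to 12.57) lies above all WT microglia (10.25 to 10.91), while in astrocytes the APP/PS1 samples of Phgdh, Psat1 and Aldh1l1 lie below the WT samples.

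In APP/PS1 astrocytes 6 of the 10 genes fell and 1 rose. Aldh1l1, Gldc, Psat1, Phgdh, Psph and Gcsh fell by between 0.72 and 1.84 log2 units, and Mthfd2 rose by 0.97. Srr, Shmt1 and Shmt2 did not pass the test. Of all genes, 33.4% were called in this comparison, 15.4% higher and 18% lower. The median of the 10 genes was -0.93 log2 units, against -0.07 over all genes. The counts are from limma with array as a block (Benjamini-Hochberg adjusted p under 0.05 over 22485 genes). A fit on only the arrays matched in Eif2s3y, 2 of astrocytes and 6 of microglia, called 7 of the 10, against 4447 of 22475 genes. Fitted on the astrocyte arrays alone, with fewer residual degrees of freedom, 4 were called, 1 higher and 3 lower. In that fit 2820 of 22485 genes were called, and Psph, Gldc and Gcsh had limma adjusted p-values of 0.0568, 0.0547 and 0.0518. Their standard errors were larger there, at 0.24, 0.31 and 0.14, against 0.21, 0.22 and 0.12 in the main fit. The main fit estimated 1 spread per gene over both cell types, so its standard errors do not describe the spread of astrocyte arrays alone.

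The mean transcript levels of all 3 serine synthesis genes were lower in APP/PS1 astrocytes. For Phgdh, replicates 1 to 4 were at 13.15, 13.85, 14.76 and 13.54 in APP/PS1, against 15.13 to 15.39 in WT. Every APP/PS1 sample lay below every WT sample. The change was -1.45 ± 0.20 log2 units (limma adjusted p = 5.47e-04), with lower values on 4 of 4 arrays. For Psat1, the APP/PS1 samples were at 11.82, 12.46, 13.76 and 12.15, against 13.85 to 14.24 in WT, a change of -1.48 ± 0.23 (limma adjusted p = 0.00113). The groups did not overlap, although replicate 3 in APP/PS1, at 13.76, was close to the lowest WT sample, at 13.85. For Psph, the APP/PS1 samples were at 10.60, 11.18, 12.33 and 11.20, against 12.50, 12.93, 12.18 and 12.28 in WT, a change of -1.15 ± 0.21 (limma adjusted p = 0.00255). Psph was lower on 3 of 4 arrays and 0.15 higher on that of replicate 3, so its groups overlapped. The second probes fell as well, by 1.57 for Phgdh, 1.01 for Psat1 and 0.97 for Psph.

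The enzymes downstream of serine did not move as 1 group. Srr was at 9.31, 9.40, 9.66 and 9.63 in APP/PS1 astrocytes, against 9.62 to 9.75 in WT, with a change of -0.17 ± 0.11 (limma adjusted p = 0.261). Shmt1 changed by 0.20 ± 0.12 (limma adjusted p = 0.233) and Shmt2 by 0.16 ± 0.12 (limma adjusted p = 0.362). Their 95% confidence intervals were -0.41 to 0.07 for Srr, -0.07 to 0.47 for Shmt1 and -0.12 to 0.44 for Shmt2. Changes of the size seen in the serine synthesis genes lie outside these intervals. Without astrocyte replicate 3, Shmt1 was called at 0.36 ± 0.11 (limma adjusted p = 0.0362).

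Both glycine cleavage genes fell in APP/PS1 astrocytes. Gldc was at 11.16, 11.80, 13.04 and 11.21, against 13.00 to 13.54 in WT, a change of -1.52 ± 0.22 (limma adjusted p = 6.72e-04). Gcsh was at 11.42, 11.81, 12.39 and 11.68, against 12.35 to 12.86 in WT, a change of -0.72 ± 0.12 (limma adjusted p = 0.00164). Each was lower on 4 of 4 arrays. In both genes replicate 3 alone reached into the WT range.

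The folate enzyme genes changed in opposite directions. Aldh1l1 was at 12.72, 13.47, 14.85 and 13.54 in APP/PS1 astrocytes, against 15.36 to 15.65 in WT. The change was -1.84 ± 0.21 log2 units (limma adjusted p = 2.95e-04), 3.57-fold, and the groups did not overlap. Mthfd2 was at 7.09, 7.17, 6.19 and 7.04 in APP/PS1 astrocytes, against 5.77 to 6.05 in WT, a change of 0.97 ± 0.19 (limma adjusted p = 0.0034), 1.95-fold. It was the 1 gene of the 10 that rose, on 4 of 4 arrays, again with no overlap. In all, 4 of the 10 genes had APP/PS1 and WT astrocyte ranges that did not overlap, 3 lower and 1 higher, against 17.3% of all genes, 10.9% lower and 6.43% higher.

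Markers of astrocytes fell together with these genes. Of 14 astrocyte markers, 13 fell and Gfap, an intermediate filament gene of reactive astrocytes, rose, with a median change of -1.31. Their brightest members by mean were Aldoc, an aldolase, which went from 16.99 to 15.63, and Glul, glutamine synthetase, which went from 16.38 to 15.17. The summed astrocyte marker level was 19.08 to 19.23 in WT and 16.99 to 18.81 in APP/PS1 astrocytes, and none of the markers was near 0. By array, the marker median changed by -2.07, -1.51, -0.30 and -1.37 for replicates 1 to 4. Phgdh changed by -1.98, -1.44, -0.53 and -1.85 on the same arrays, Psat1 by -2.03, -1.78, -0.34 and -1.76, and Aldh1l1 by -2.64, -2.18, -0.63 and -1.90. In each series the array of replicate 3 showed the smallest fall. The change in Phgdh minus the marker median of the same array was -0.14 ± 0.27 (mean ± SD, n = 4), in Psat1 -0.17 ± 0.20, in Psph 0.16 ± 0.29, in Gldc -0.21 ± 0.42, in Gcsh 0.59 ± 0.39 and in Aldh1l1 -0.53 ± 0.14. Only for Aldh1l1 and Gcsh, among these 6, did this difference have 1 sign on all 4 arrays, lower than the marker median for Aldh1l1 and higher for Gcsh.

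Markers of other cells rose in those samples too. The microglia list had 11 of 14 genes higher and 2 lower, with a median change of 1.59, or 3.24, 1.75, 1.32 and 0.19 by array. Of the brightest by mean, the growth factor receptor gene Csf1r rose from 9.94 to 11.54 and the lectin gene Siglech fell from 14.41 to 13.64. Itgam fell as well, from 13.50 to 12.90, and these were the brightest of the list in WT astrocytes, so the sum over the list rests mostly on them. Whether their probes measure the named transcripts there was not tested. The summed microglia marker level overlapped between WT (14.88 to 15.84) and APP/PS1 (14.42 to 15.83), and the median level over the list was 6.36 to 7.89 in WT and 8.89 to 11.61 in APP/PS1 samples. Endothelial markers rose in 8 of 9 cases (median 1.10), with summed levels of 16.78 to 17.85 in WT and 17.86 to 18.59 in APP/PS1. Mural markers rose in 5 of 7 cases (median 1.83), with summed levels of 14.84 to 17.57 and 17.50 to 19.03. Of the other lists, 3 of 6 oligodendrocyte precursor markers fell and 1 rose, 1 of 11 neuron markers rose and 2 fell, 2 of 8 oligodendrocyte markers rose and 2 fell, and 3 of 6 perivascular macrophage markers rose. The part of these markers in the changes of the 10 genes was not tested.

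**Figure D2:**
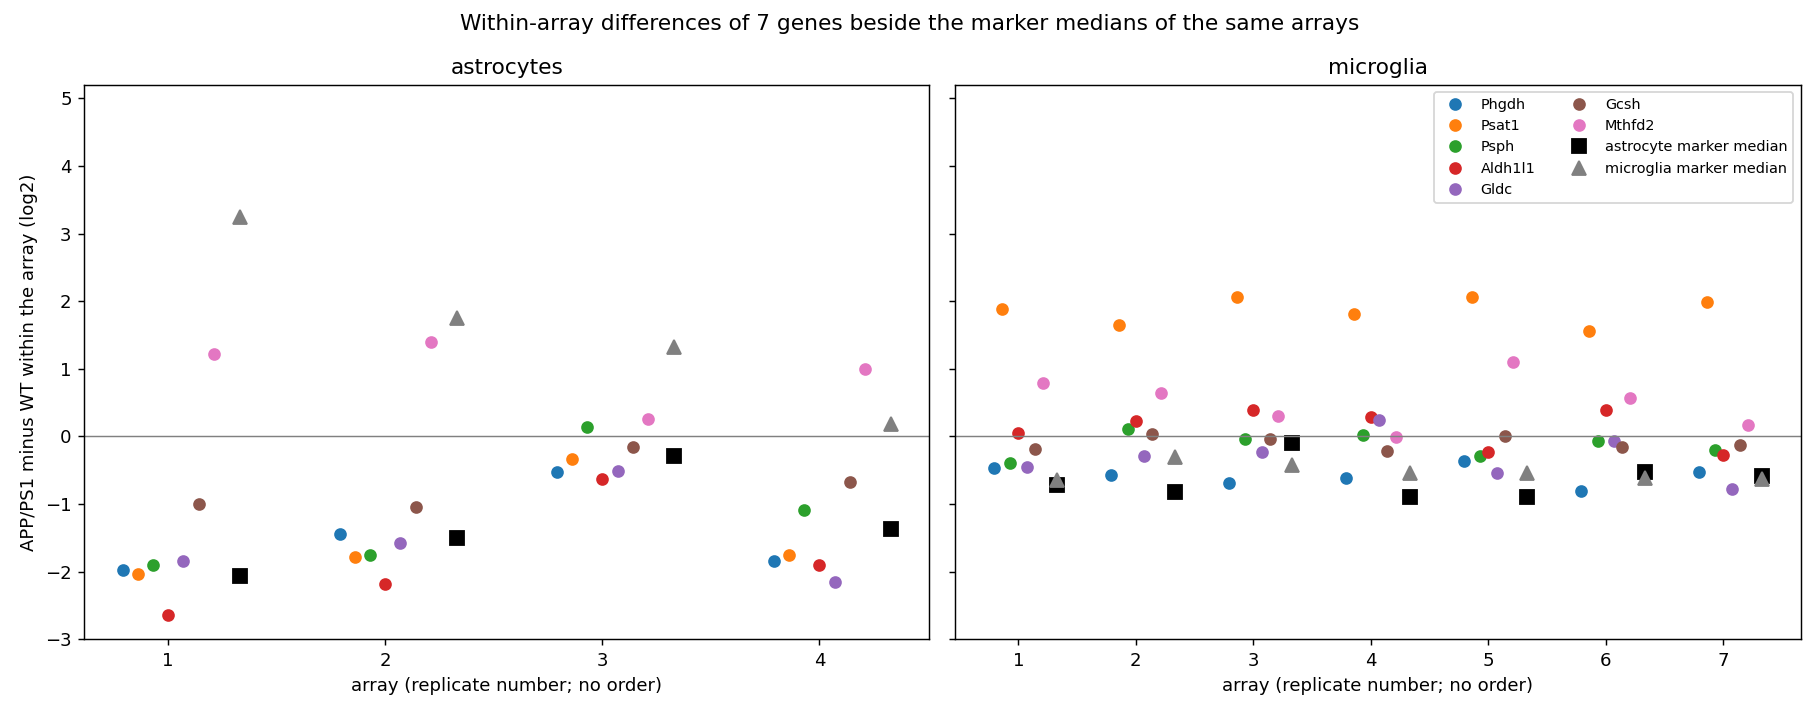
APP/PS1 minus WT within each array (log2, y axis) for the 7 genes past the threshold in astrocytes (circles), with the median change of the astrocyte markers (squares) and of the microglia markers (triangles), for 4 astrocyte arrays (left) and 7 microglia arrays (right). In astrocytes the falls of Phgdh, Psat1, Aldh1l1, Gldc and Gcsh are smallest on the array of replicate 3, where the astrocyte marker median fell by 0.30, while in microglia Psat1 was 1.55 to 2.07 higher on every array.

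In APP/PS1 microglia 3 of the 10 genes changed: Psat1 and Mthfd2 rose and Phgdh fell. Of all genes, 19.7% were called in this comparison, 8.27% higher and 11.4% lower. The median of the 10 genes was -0.08 log2 units, against -0.04 over all genes. Psat1 was at 12.06 to 12.57 in APP/PS1 microglia, median 12.46, and at 10.25 to 10.91 in WT, median 10.54. Every APP/PS1 sample lay above every WT sample. The change was 1.87 ± 0.18 log2 units (limma adjusted p = 9.51e-05), 3.65-fold, and Psat1 was higher on 7 of 7 arrays. Its second probe rose by 1.72. The change was 1.90 within the 4 arrays of slide 1 (limma adjusted p = 0.0201) and 1.75 within the 3 arrays of slide 2, where no gene of the table passed (limma adjusted p = 0.106). An unadjusted p under 0.05 was reached there by 2 of the 10 genes and by 5486 of 22304 in the table.

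Phgdh, the step before Psat1, was lower in APP/PS1 microglia. It was at 11.08 to 11.76, median 11.52, against 11.78 to 12.47 in WT, median 11.89, and was lower on 7 of 7 arrays. The change was -0.57 ± 0.15 (limma adjusted p = 0.0245), and the highest APP/PS1 sample, at 11.76, was just below the lowest WT sample, at 11.78. The second Phgdh probe gave -0.60 (limma adjusted p = 0.0329). Without microglia replicate 2, 3, 4 or 6 the change was -0.51 to -0.56 and the limma adjusted p was 0.0624, 0.0532, 0.0698 or 0.0791. Without the array block it was 0.117, and within slides 1 and 2 the change was -0.56 (limma adjusted p = 0.0694) and -0.65 (limma adjusted p = 0.128). Groups that do not overlap were found for 2 of the 10 genes, Psat1 higher and Phgdh lower, against 6.99% of all genes, 3.74% higher and 3.26% lower.

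Mthfd2 was at 7.08 to 8.28 in APP/PS1 microglia, median 7.93, against 6.45 to 7.82 in WT, median 7.28. It was higher on 6 of 7 arrays, with groups that overlapped, and the change was 0.49 ± 0.14 (limma adjusted p = 0.0403). This call was lost without microglia replicate 1, 2, 4, 5 or 6 and without astrocyte replicate 1 or 4, with limma adjusted p-values from 0.0507 to 0.120 and changes from 0.41 to 0.55, and without the array block (0.274). Within slides 1 and 2 the change was 0.51 and 0.53, with limma adjusted p-values of 0.208 and 0.234. On the arrays whose samples matched in Eif2s3y it was 0.47 (limma adjusted p = 0.0908).

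The other 7 genes were not called in microglia. Psph, the last step of serine synthesis, was at 8.32 to 9.21 in APP/PS1 and 8.29 to 9.35 in WT, a change of -0.07 ± 0.16 (95% confidence interval -0.43 to 0.29). Shmt1 changed by -0.23 ± 0.09 and was lower on 7 of 7 arrays, but did not pass (limma adjusted p = 0.116). Its second probe gave -0.64 (limma adjusted p = 0.111), and with the mean of both probes Shmt1 was called at -0.44 (limma adjusted p = 0.0321). Fitted on microglia alone it was called at -0.23 (limma adjusted p = 0.0339). Shmt2 changed by -0.09 (interval -0.31 to 0.12), Gldc by -0.28 (-0.64 to 0.09), Gcsh by -0.08 (-0.29 to 0.13) and Aldh1l1 by 0.16 (-0.20 to 0.53). The probes of Srr disagreed: the main probe gave 0.01 ± 0.08, and the dimmer probe fell by 0.42 (SE 0.10, limma adjusted p = 0.0149).

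The marker lists moved in APP/PS1 microglia too. Of 14 astrocyte markers, 7 fell and 2 rose, with a median of -0.76, and their summed level was 13.88 to 14.56 in WT and 13.02 to 13.76 in APP/PS1. Of 14 microglia markers 7 fell and 2 rose (median -0.58), with a summed level of 19.60 to 19.79 in WT and 19.21 to 19.46 in APP/PS1. All 6 perivascular macrophage markers and 6 of 11 neuron markers fell. Endothelial markers rose in 1 of 9 cases, mural in 0 of 7, oligodendrocyte in 1 of 8, and of 6 oligodendrocyte precursor markers 1 rose and 1 fell. The change in Phgdh minus the microglia marker median of the same array was -0.05 ± 0.20 (mean ± SD, n = 7). For Psat1 this was 2.39 ± 0.25 and for Mthfd2 1.04 ± 0.40. The part of these lists in the changes of Psat1, Phgdh and Mthfd2 was not tested.

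**Figure D3:**
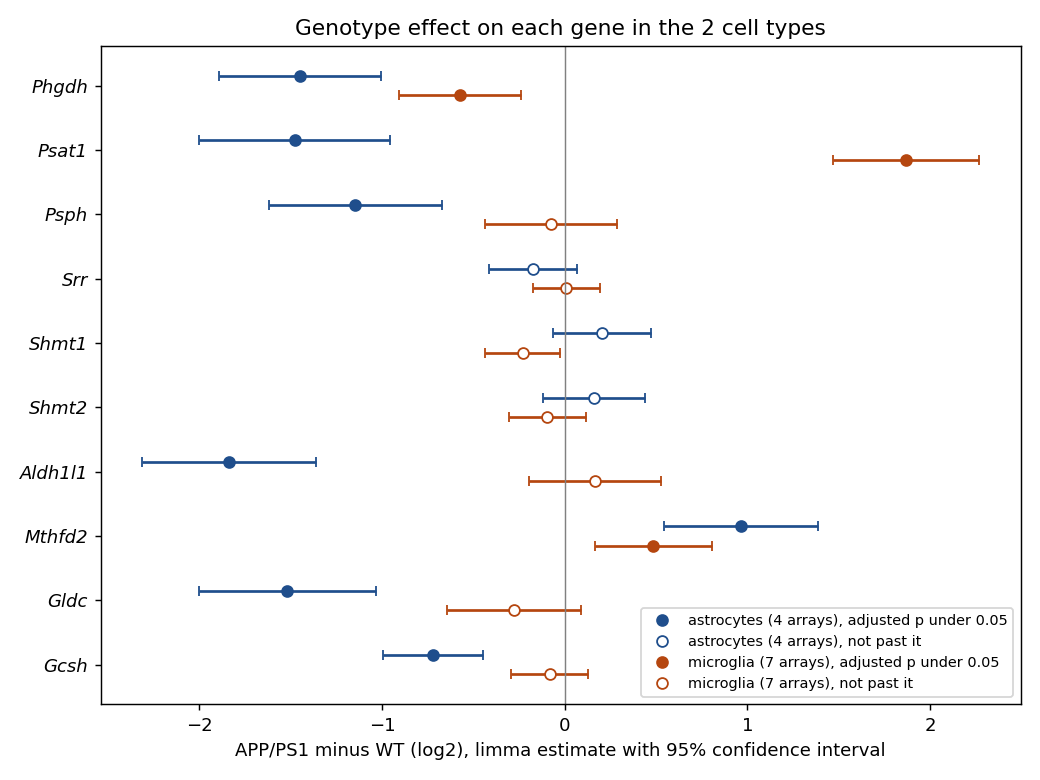
APP/PS1 minus WT for each of the 10 genes (log2, x axis) in astrocytes (blue, 4 arrays) and microglia (orange, 7 arrays), as the limma estimate with its 95% confidence interval; filled points passed an adjusted p of 0.05. Psat1 lies at -1.48 in astrocytes and 1.87 in microglia, while Mthfd2 lies above 0 and Phgdh below 0 in both.

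The genotype effect differed between the cell types for 6 of the 10 genes, by an interaction test (the effect in astrocytes minus that in microglia, limma adjusted p under 0.05 over 22395 genes). Of all genes, 26.6% were called in this contrast, 13.2% with the astrocyte effect lower. All 6 had the lower effect in astrocytes. For Psat1 the difference was -3.35 ± 0.29 log2 units (limma adjusted p = 8.89e-05), since it fell in astrocytes and rose in microglia. In APP/PS1 samples its mean was thus 12.54 ± 0.85 (SD, n = 4) in astrocytes and 12.41 ± 0.16 (n = 7) in microglia, where the WT means were 14.02 ± 0.18 and 10.55 ± 0.25. For Aldh1l1 the difference was -2.0 ± 0.27 (limma adjusted p = 6.62e-04), for Gldc -1.24 ± 0.27 (0.0081) and for Psph -1.07 ± 0.27 (0.0148). For Phgdh, which fell in both cell types, it was -0.88 ± 0.25 (limma adjusted p = 0.0266) and for Gcsh -0.64 ± 0.15 (0.0131).

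Mthfd2 rose in both cell types, and its difference of 0.48 ± 0.24 did not pass (limma adjusted p = 0.170, 95% confidence interval -0.05 to 1.01). The differences of Shmt1 (0.43 ± 0.15, limma adjusted p = 0.0609), Shmt2 (0.26, interval -0.09 to 0.61) and Srr (-0.18, interval -0.48 to 0.12) did not pass either. The count of 6 was 3 without astrocyte replicate 1 and 3 without astrocyte replicate 2, where Phgdh, Psph and Gcsh were lost (limma adjusted p from 0.0505 to 0.0964). Without the array block it was 2, Psat1 and Aldh1l1.

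Of 50 other measured genes of serine, glycine, folate and methionine metabolism and its regulators, 13 rose, 15 fell and 22 were not called in APP/PS1 astrocytes, with a median of 0.04. In APP/PS1 microglia 8 rose, 10 fell and 32 were not called, with a median of -0.00. Of all genes, 15.4% rose and 18% fell in astrocytes, and 8.27% rose and 11.4% fell in microglia. These shares are also the background for the counts of the smaller lists below. Without the array block 12 and 8 of the 50 were called, against 2447 and 1184 over all genes. Another 5 listed genes were not analysed here. Among 10 folate cycle genes, 2 rose and 4 fell in astrocytes, and 3 rose and 2 fell in microglia. Aldh1l2, the mitochondrial counterpart of Aldh1l1, rose in astrocytes from 6.29 ± 0.74 to 7.84 ± 0.63 (mean ± SD, n = 4), a change of 1.55 ± 0.14 (limma adjusted p = 1.45e-04) opposite in sign to that of Aldh1l1. Aldh1l2 also rose in microglia, by 0.62 ± 0.11 on 7 of 7 arrays (limma adjusted p = 0.0034). Mthfd1, the cytosolic counterpart of the mitochondrial folate dehydrogenases, fell by 0.81 in astrocytes while Mthfd2 rose. In microglia Ggh, which trims glutamates from stored folates, rose from 11.61 ± 0.35 to 12.49 ± 0.31 (n = 7), a change of 0.87 ± 0.09 (limma adjusted p = 1.76e-04). Its change in astrocytes was -0.74 ± 0.12, lower on 4 of 4 arrays (limma adjusted p = 0.00144). The effects differed by -1.61 ± 0.15, astrocytes minus microglia (limma adjusted p = 1.23e-04).

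Transporters of serine and glycine were among the changed genes in astrocytes, where 5 of 9 fell and 3 rose. Those that fell were Slc7a10, which exchanges D-serine and other small neutral amino acids (-1.70 ± 0.29), Slc1a4, an exchanger that takes serine (-1.05 ± 0.17, lower on 3 of 4 arrays), Slc38a3 (-1.04 ± 0.17), a glutamine transporter, Sfxn1, the mitochondrial serine carrier (-0.84 ± 0.09), and Slc6a9, the glycine transporter (-0.70 ± 0.12). Those that rose were Slc38a5 (1.49 ± 0.46), Slc1a5 (1.27 ± 0.20) and Slc38a2 (0.74 ± 0.10), carriers of neutral amino acids. By array, the median over the 9 genes was -0.81, -0.93, 0.43 and -0.51 for replicates 1 to 4. In these samples 13 of 14 astrocyte markers fell and 8 of 9 endothelial and 5 of 7 mural markers rose, as given above, and their part in the changes of the transporters and other pathway genes was not tested. Slc38a5 lost its call without astrocyte replicate 2 or 4, at 1.30 and 1.03 (limma adjusted p = 0.126 and 0.153). Slc1a4 lost its call with no dye term (limma adjusted p = 0.0967). Without the array block the limma adjusted p was 0.145 for Slc38a2, 0.0536 for Slc38a3, 0.148 for Slc38a5, 0.0938 for Slc6a9 and 0.0632 for Slc7a10.

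In microglia 1 of these 9 transporters rose and 1 fell. Slc1a5 rose from 6.20 ± 0.57 to 7.15 ± 0.44 (n = 7), a change of 0.94 ± 0.15 on 7 of 7 arrays. Slc7a10 fell by 0.88 from a mean of 5.37, and its call was lost without microglia replicate 2, 4, 5 or 7, with limma adjusted p-values from 0.0509 to 0.0686. Without the array block the limma adjusted p was 0.0939 for Slc1a5 and 0.371 for Slc7a10.

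Among 5 folate transport genes, 1 rose and 1 fell in each cell type, and Slc46a1 fell in both. Slc46a1, the proton-coupled folate transporter, fell in astrocytes from 12.59 ± 0.24 to 11.18 ± 0.63 (change -1.42 ± 0.15, limma adjusted p = 2.16e-04) and in microglia from 12.71 ± 0.10 to 12.03 ± 0.13 (change -0.68 ± 0.12, limma adjusted p = 0.00273). Slc19a1, the reduced folate carrier, rose in astrocytes by 1.31 ± 0.22, where its adjusted p was 0.052 without the arrays that differed in Eif2s3y (limma). Folr1, a folate receptor, rose in microglia by 1.16 ± 0.23 (limma adjusted p = 0.00616), with a change of 0.66 that did not pass as the mean of its probes (limma adjusted p = 0.0536).

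The methionine cycle and the regulators also held changed genes. Cbs, the first enzyme of transsulfuration, which joins homocysteine to serine, fell in astrocytes from 15.33 ± 0.30 to 13.90 ± 0.67 (change -1.43 ± 0.17, limma adjusted p = 3.12e-04). Cbs also changed by -0.42 ± 0.13 in microglia, lower on 7 of 7 arrays (limma adjusted p = 0.0444). Methionine synthase, Mtr, fell in microglia by 0.33 (SE 0.06), a call lost without the array block (limma adjusted p = 0.285). It rose in astrocytes by 0.41 ± 0.07 on 4 of 4 arrays (limma adjusted p = 0.00229), and the effects differed by 0.74 ± 0.09 (limma adjusted p = 4.75e-04). Of 9 methionine cycle genes, 2 rose and 2 fell in astrocytes and 1 rose and 2 fell in microglia. Of the glycine cleavage partners, 1 of 2 fell in each cell type. Of 7 genes of serine and glycine breakdown and use, 1 rose and 1 fell in astrocytes and 1 fell in microglia.

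Of 8 regulators, 4 rose and 1 fell in astrocytes, and 2 rose and 2 fell in microglia. Trib3, a pseudokinase gene induced by ATF4, the factor that also drives serine synthesis genes under amino acid stress, rose in microglia from 6.06 ± 0.54 to 9.25 ± 0.46 (n = 7). The change was 3.25 ± 0.11 (limma adjusted p = 2.78e-07) on 7 of 7 arrays. Chac1, another ATF4 target that degrades glutathione, rose in microglia by 0.93 ± 0.15, while Myc fell by 1.05. The astrocyte values of these targets, and those of the asparagine synthetase gene Asns, another target, are named after they were seen. In astrocytes, where Psat1 fell, Trib3 rose by 1.03 ± 0.14 (limma adjusted p = 5.22e-04), Chac1 by 0.70 ± 0.20 (0.0239) and Asns by 1.56 ± 0.39 (0.0123). Asns in microglia was at -0.35 ± 0.30 (limma adjusted p = 0.481). Atf4 itself, named after its values were seen, changed in microglia by -0.26 ± 0.08 (limma adjusted p = 0.0497) and in astrocytes by -0.16 ± 0.11 (limma adjusted p = 0.297). Whether ATF4 had a part in the changes of Psat1, of the other serine synthesis genes or of these targets was not tested. In astrocytes Atf3, a stress-induced factor, rose by 1.81 ± 0.20 on 4 of 4 arrays, to 10.81 ± 1.02 (mean ± SD, n = 4).

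**Figure D4:**
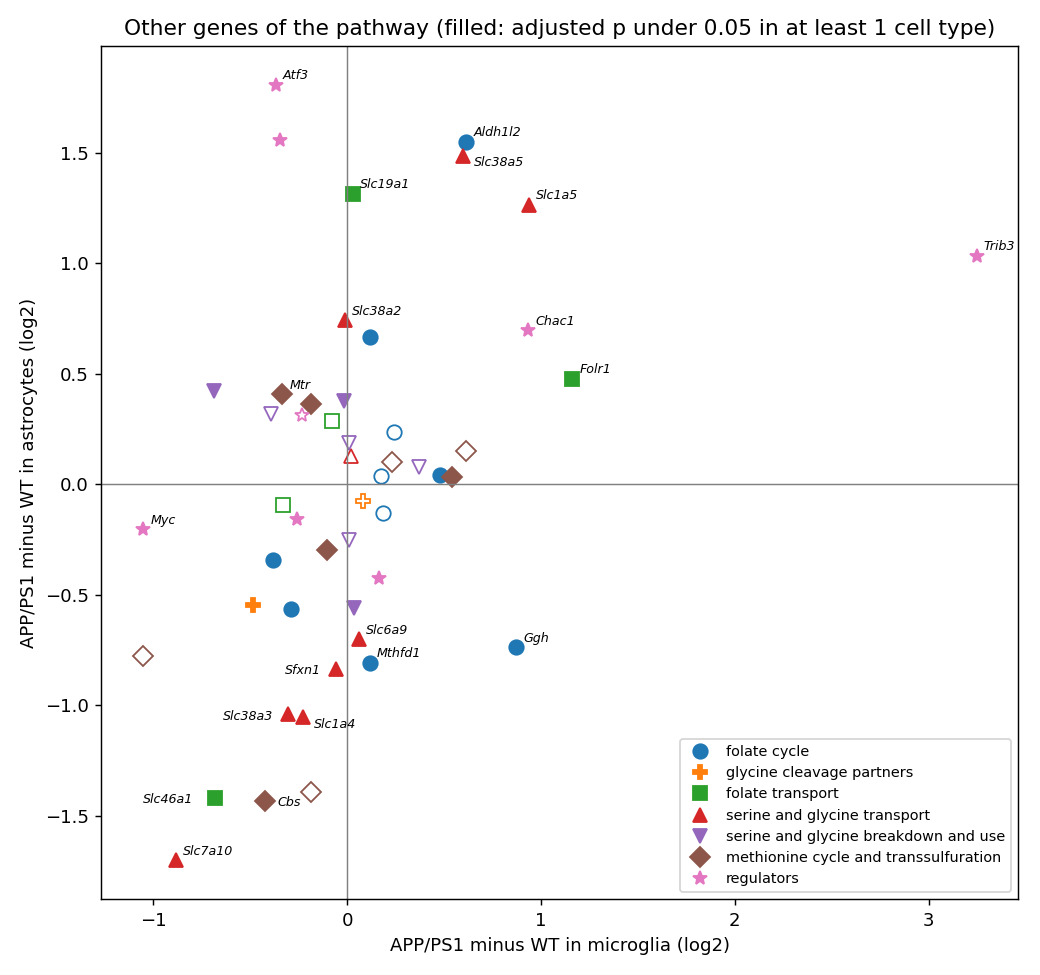
APP/PS1 minus WT in microglia (log2, x axis) against that in astrocytes (log2, y axis) for the 50 other measured pathway genes, by list; filled symbols passed an adjusted p of 0.05 in at least 1 cell type, and the named genes are those described in the text by rule. Trib3 lies farthest to the right at 3.25, Slc1a5 and Aldh1l2 lie above 0 in both cell types, and Slc7a10, Slc46a1 and Cbs lie below 0 in both.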

How the data were processed

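The analysis used the authors' deposited value table of 22 columns, in which each sample is 1 channel of an array that held 2. The values are log2 intensities per the table's range and the labels. limma is named, with no version, per the submitters' processing notes. How background and arrays were normalized is not given in the sources used here. Of 43020 probes, 33026 named 1 gene by the platform annotation, 0 several and 9994 none; 32438 matched RefSeq (GRCm38.p6). Microglia arrays had 32045 to 40771 values and astrocyte arrays 42427 to 42869, and blank values stayed missing.

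Genotype effects were fitted with limma 3.58.1 (R 4.3.3, statmod 1.5.0) to all 22 samples at once, with a fixed term per array, a dye term and 1 genotype term per cell type. For the WT cell types, means of the 4 groups and dye were fitted, and array was random. All tests were two-sided, with Benjamini-Hochberg adjusted p under 0.05 over all genes. The pairing comes from shared arrays in the labels: same-array samples, centred in their groups, correlated at 0.27 to 0.49 in microglia and -0.00 to 0.32 in astrocytes. Tables and figures were made with Python 3.11.15, pandas 2.3.3 and matplotlib 3.10.9, and the fit was tested on simulated data. The number of arrays limits precision.

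The 10 genes, the lists and the alternatives were chosen with earlier results of these data known. The rule named all 10 genes, per cell type the 6 other pathway genes with the smallest adjusted p past 0.05, every such transporter gene, and the brightest astrocyte and microglia markers. Alternatives were the block, the dye term, quantile normalization, the mean of probes, filters on dim or incomplete genes, 1 cell type alone, each slide and leaving out each array. The arrays matched in Eif2s3y and the other probes were added after seeing the data.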

Additional observations from a re-analysis of the deposited data

Results flagged for a closer look

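Of 40 groups of samples (10 genes in 4 groups), 3 held a sample far from the others by Dixon's criterion; chance gives about 1 in 20 groups. Psat1 was lowest in APP/PS1 microglia replicate 4, at 12.06, against 12.41 for the next sample, and still above every WT sample. Mthfd2 was lowest in APP/PS1 astrocyte replicate 3, at 6.19, against 7.04 for the next, and still above every WT sample. Gldc was lowest in WT microglia replicate 4, at 5.11, against 6.34 for the next.

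For 6 genes the genotype effect differed between the cell types by the interaction test (astrocytes minus microglia): Psat1 by -3.35, Aldh1l1 by -2.0, Gldc by -1.24, Psph by -1.07, Phgdh by -0.88 and Gcsh by -0.64.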

How the results depend on the processing

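The 10 genes gave 9 calls between the WT cell types under every alternative but 1, the filter on dim genes, which removed Shmt1 and gave 8. In astrocytes the count of 7 was 4 when that cell type was fitted alone, against 2820 over all genes. It was 7 to 8 when 1 array was left out, against 5513 to 7528 over all genes. In microglia the count of 3 was 4 when that cell type was fitted alone, against 4871 over all genes. With the mean of probes it was also 4, against 4169 over all genes. It was 1 within slide 1, against 873 of 20860 genes in all. It was 0 within slide 2, where 2 of the 10 genes, and 5486 of 22304 in all, had an unadjusted limma p under 0.05. With 1 array left out it was 1 to 3, against 3300 to 4618 over all genes, with 1 without microglia replicate 2, 4 or 6. For the difference of effects the count of 6 was 3 to 7 when 1 array was left out, against 4396 to 5945 over all genes. With no replicate block, which ignores the array pairing, the counts were 7 in astrocytes, 1 in microglia, 2 for the difference and 9 between WT cell types, and over all genes 2447, 1184 and 1491 were called for the first 3, against 7516, 4403 and 5952. Over all genes, 7261 differed between the WT cell types with a random slide term, against 11940 with array. On arrays matched in Eif2s3y, added after seeing the data, the counts were 7 in astrocytes, 2 in microglia and 6 for the difference. Over all genes 4447, 3342 and 3864 were called there. Of values past the threshold in the main setting or the alternative, the direction was reversed in 1 case, Srr in microglia, where the other probe gave -0.42; the cause was not tested. Among values that passed in neither, another probe gave the opposite sign for Shmt1 in astrocytes (-0.06), Gcsh in microglia (0.26) and the Srr difference (0.16), and Srr in microglia lay between -0.21 and 0.07 over the alternatives with its main probe or the mean of probes.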
